A study of Arabidopsis thaliana with 79 samples.

Results

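WRKY transcription factors are a plant family named after the conserved peptide motif of their DNA-binding domain, which recognises short W-box elements in promoters. The members described here are the probe sets annotated to a single gene whose symbol starts with WRKY or ATWRKY. There were 6 of them among 22746 tested probe sets, each the only named probe set of its gene, and each was read in all 36 array groups. They are WRKY6 (AT1G62300, probe set 264746_at), WRKY20 (AT4G26640, 253983_at), WRKY22 (AT4G01250, 255568_at), WRKY42 (AT4G04450, 255337_at), WRKY47 (AT4G01720, 255596_at) and WRKY53 (AT4G23810, 254231_at). The RefSeq annotation used for names holds 67 genes with such a symbol, so the 6 are a small share of the family, and the other genes were not analysed here. The rule itself uses symbols only, but the members were chosen with earlier results of these data known.

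As background, WRKY factors act in defence, leaf senescence and nutrient stress, and many are themselves switched on within hours of a stress. WRKY22 and its relative WRKY29 lie downstream of a MAP kinase cascade started by bacterial flagellin. WRKY53, of another group, promotes leaf senescence. WRKY6, WRKY42 and WRKY47 share a subgroup, of which WRKY6 acts in senescence and defence and, with WRKY42, in phosphate homeostasis. WRKY20 has a pair of WRKY domains.

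The arrays are Affymetrix ATH1 arrays of 7-day-old Arabidopsis thaliana seedlings, 47 from roots and 32 from shoots. All plants are Col-0 and carry His6FLAG-tagged ribosomal protein RPL18B under 1 of 13 promoters, the controls included. Seedlings spent 2 h in argon (hypoxia) or stayed in air (control) before they were cut into roots and shoots. Polysomal RNA came from tagged ribosomes pulled down with FLAG antibodies, and total RNA from the extract of the p35S plants. Root groups exist for total RNA, p35S (meant to tag nearly all cells), pSCR (endodermis), pSHR and pWOL (vascular tissue), pGL2 (non-hair epidermis), pSUC2 (phloem companion cells), pCO2 and pPEP (cortex) and pRPL11C (root meristem). The shoot groups are total RNA, p35S, pGL2 (trichomes), pRBCS (mesophyll), pSUC2, pCER5 (epidermis) and pKAT1 (guard cells). The phloem line pSultr2;2 was read in control seedlings only, in both organs. Each promoter line stands for its cells only as far as the promoter is active there alone, and the labels do not say how many independent transgenic plants each line represents. In such extracts fewer cells of a type and less RNA per cell cannot be told apart.

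Groups hold 2 arrays (30 groups), 3 (5 groups) or 4 (1 group), from independent experiments per the labels. With so few arrays per group, each mean is imprecise. Each SE of a difference rests on 1 spread per probe set shared by all groups. It does not show the scatter of a single group. Values are log2 signals between 3.31 and 15.16, replicate arrays correlated at 0.973 to 0.994, and levels of different probe sets are not comparable with each other. None of 10 listed hypoxia markers and none of 5 photosynthesis genes had a named probe set here. PDC2, a pyruvate decarboxylase gene of ethanolic fermentation taken afterwards as a check of the treatment, rose in 17 of 17 hypoxia comparisons by 1.80 to 3.91. Of 10 genes whose promoters drive the tag, 2 had a named probe set. The gene of the PEP promoter, AT1G09750, was highest among control root groups in pPEP (10.12 and 10.38), whereas that of the CO2 promoter, AT1G62500, read 4.78 and 4.93 in control root pCO2 RNA and was not raised there.

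Hypoxia raised WRKY22 in every root population, by 4.08 to 6.11 on the log2 scale (16.9-fold to 69.3-fold), and WRKY53 and WRKY6 in 7 of 10 root populations each. In shoots WRKY22 rose in 4 of 7 populations, and WRKY53 and WRKY6 in pCER5. WRKY20, WRKY42 and WRKY47 were called in no hypoxia comparison. A probe set is called when its limma p, adjusted by Benjamini-Hochberg over all tested probe sets, is under 0.05 and its log2 difference is at least 1, a 2-fold change. Statements below on whether arrays of both conditions overlapped only describe the arrays. The share of all tested probe sets without overlap is not given.

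Of the 60 root values of the 6 members, 24 were called higher and 0 lower, while over all tested probe sets 3.13% of root values were called higher and 2.4% lower. In shoots 6 of 42 values were called higher and 0 lower, against 1.52% and 0.63% of all values. At an unadjusted p under 0.05, 2 root and 3 shoot values were lower. The 3 responding members contributed all of these rises. In roots 3 members rose in pSHR (where 3.24% of all tested probe sets rose), pWOL (3.55%), pSUC2 (3.55%), pPEP (3.51%) and pRPL11C (3.19%). A pair of members, always including WRKY22, rose in p35S (1.98%), pSCR (3.38%), pGL2 (2.66%) and pCO2 (4.15%), and WRKY22 alone in total RNA (2.13%). In shoots 3 members rose in pCER5 (1.94%), and WRKY22 alone in total RNA (1.28%), pSUC2 (2.18%) and pKAT1 (1.98%). In shoot p35S (1.05%), pGL2 (1.16%) and pRBCS (1.05%) 0 members were called, although 2 members in each had an unadjusted p under 0.05. The median difference of the 6 members lay between 0.17 (pGL2) and 0.94 (pRPL11C) in roots and between 0.24 (total RNA) and 0.94 (pCER5) in shoots, and that of all tested probe sets between −0.04 and 0.02 in both organs.

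**Figure D1:**
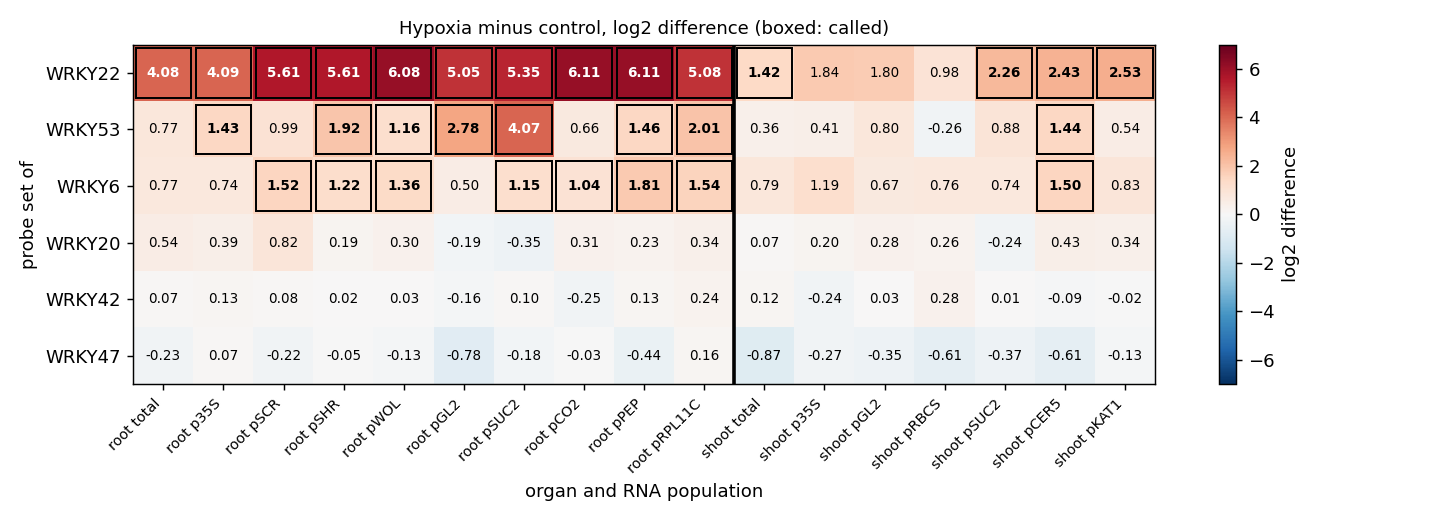
Hypoxia minus control log2 difference of the 6 WRKY probe sets (rows) in 10 root and 7 shoot RNA populations (columns, divided by the vertical line); red is higher in hypoxia, blue lower, and boxed bold values were called. The row of WRKY22 is boxed in all root columns, WRKY53 reaches 4.07 in root pSUC2, and the 3 lower rows hold no boxed value.

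WRKY22 read between 7.69 and 11.79 in hypoxic root arrays and between 4.60 and 5.73 in control root arrays, so no hypoxic root array overlapped with any control root array. The control values lay at percentiles 17.7 to 39.1 of their arrays, towards the low end of the scale. The exact size of the fold changes is therefore uncertain. In the cortex lines it was 11.79 and 11.28 in hypoxic pPEP, against 5.50 and 5.34 in control pPEP. In pCO2 it was 11.39 and 11.13 in hypoxia and 5.41 and 4.89 in control. These lines gave the highest responses, 6.11 ± 0.52 each (SE, adjusted p 4.21e-13 and 5.04e-13).

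The vascular lines came close behind. WRKY22 was 10.89 and 11.29 in hypoxic pWOL against 5.16 and 4.85 in control pWOL, a difference of 6.08 ± 0.52 (adjusted p 6.03e-13). In pSHR it was 10.51 and 10.72 in hypoxia and 4.90 and 5.12 in control, a difference of 5.61 ± 0.52 (adjusted p 8.41e-12). In the phloem line pSUC2 the values were 10.82 and 11.01 in hypoxia and 5.63 and 5.51 in control, a difference of 5.35 ± 0.52 (adjusted p 3.91e-11). The phloem response lay within the range of the other root promoter lines.

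In the endodermis line pSCR, WRKY22 was 10.03 and 11.05 in hypoxia and 4.60 and 5.26 in control (5.61 ± 0.52, adjusted p 6.96e-12). In pGL2, 2 hypoxic arrays read 10.20 and 10.95 and 3 control arrays 5.73, 5.14 and 5.72 (5.05 ± 0.47, adjusted p 1.12e-11). In pRPL11C the arrays read 10.50 and 10.31 in hypoxia and 5.36 and 5.30 in control (5.08 ± 0.52, adjusted p 1.67e-10). Across the 8 root promoter lines other than p35S the responses ranged over 1.07, and an F-test of whether they differ gave an adjusted p of 0.979. No pair of neighbours in the order of the 10 responses differed by more than 2 SE. Both rest on the shared spread, which the scatter in hypoxic root total and p35S RNA raises. They therefore do not show that the lines respond alike.

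Root total RNA and root p35S RNA gave smaller values, and there the hypoxic array numbered 1 stood apart. In total RNA WRKY22 was 7.69, 9.99 and 10.34 in hypoxic arrays numbered 1, 3 and 4, against 5.33, 5.26, 5.30 and 5.17 in control arrays (4.08 ± 0.39, adjusted p 2.46e-11). In p35S it was 7.85 and 10.72 in hypoxic arrays numbered 1 and 3, against 5.48, 5.04 and 5.07 in control arrays (4.09 ± 0.47, adjusted p 6.78e-09). The hypoxic SD was 1.44 in total RNA and 2.03 in p35S, against 0.52 shared by all groups in the model. These SE and adjusted p values therefore understate the scatter there. The same groups raise the shared SD, so that it can overstate the scatter of WRKY22 elsewhere. The hypoxic SD was 0.14 in pSHR and in pRPL11C, though 0.72 in pSCR. Both arrays numbered 1 lay above all controls and well below the other hypoxic arrays. Without them, an alternative added after the values were seen, the differences were 4.90 and 5.52. Without the hypoxic p35S array numbered 3 the p35S difference was 2.65 and stayed called. PDC2 read 12.95, 12.50 and 14.10 in hypoxic total RNA in the same array order, and 13.19 and 13.25 in hypoxic p35S. In control total RNA arrays 1 to 4 it read 9.09, 9.41, 9.02 and 10.76. Whether the treatment was weaker for the arrays numbered 1 was not tested. The gap between 3′ and 5′ actin control probe sets, a sign of RNA quality, was 3.71, 3.35 and 1.83 in the hypoxic total RNA arrays and 3.66 and 3.68 in the hypoxic p35S arrays. The part of RNA quality in these values was not tested.

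**Figure D2:**
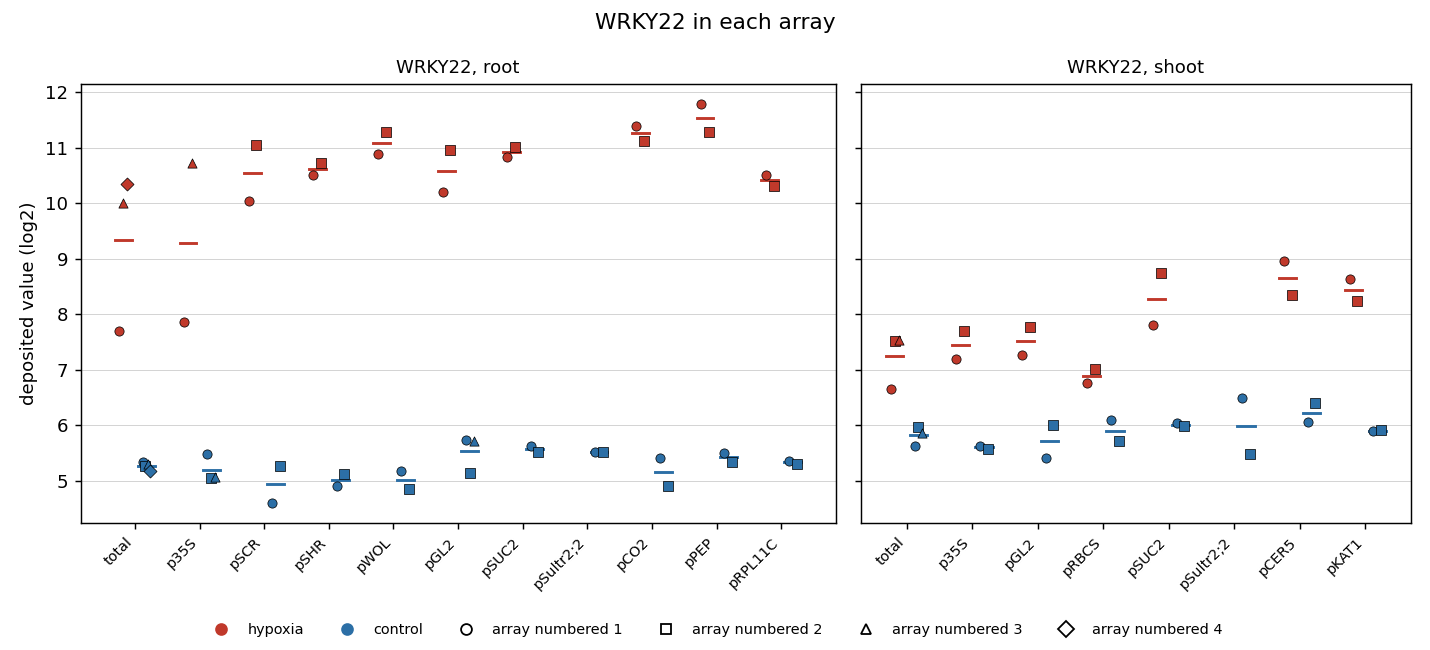
Deposited log2 value of WRKY22 in every array (points; symbols give the array number, horizontal lines the group means) by RNA population, roots left and shoots right, with hypoxia in red left of control in blue; pSultr2;2 has control arrays only. Hypoxic root arrays reach 7.69 to 11.79 and hypoxic shoot arrays 6.66 to 8.96, and the red circles of root total and p35S RNA lie below the other hypoxic root arrays.

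In shoots WRKY22 read between 6.66 and 8.96 in hypoxic arrays and between 5.41 and 6.48 in control arrays. The hypoxic arrays lay above the controls in all 7 populations. The largest shoot response was in the guard cell line pKAT1, with 8.63 and 8.24 in hypoxia and 5.89 and 5.91 in control (2.53 ± 0.52, 5.79-fold, adjusted p 0.000714). The epidermal line pCER5 followed with 8.96 and 8.35 in hypoxia and 6.05 and 6.39 in control (2.43 ± 0.52, adjusted p 0.00109). In shoot pSUC2 the values were 7.81 and 8.73 in hypoxia and 6.03 and 5.99 in control (2.26 ± 0.52, adjusted p 0.00379).

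Whole shoots showed a smaller rise. In shoot total RNA WRKY22 was 6.66, 7.52 and 7.54 in hypoxia and 5.63, 5.97 and 5.86 in control (1.42 ± 0.42, adjusted p 0.0364). The other populations missed the call. Shoot p35S read 7.20 and 7.69 in hypoxia and 5.63 and 5.57 in control (1.84 ± 0.52, adjusted p 0.0506). Shoot pGL2 read 7.26 and 7.77 in hypoxia and 5.41 and 6.01 in control (1.80 ± 0.52, adjusted p 0.0563). The mesophyll line pRBCS had the smallest difference, with 6.76 and 7.01 in hypoxia and 6.08 and 5.72 in control (0.98 ± 0.52, adjusted p 0.581). The F-test over the 5 shoot promoter lines other than p35S called 0 members, against 1.29% of all tested probe sets, and 0 members had an unadjusted p under 0.05. For WRKY22 the responses ranged over 1.55 (adjusted p 0.884). The spread used there includes the uneven hypoxic root groups, so the test does not show an even shoot response of WRKY22.

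In shoots the WRKY22 calls in pCER5 (2.13 to 2.74) and pKAT1 (2.34 to 2.73) held without each array in turn, and the other calls did not. The total RNA call was lost without the control array numbered 1 (1.32), 2 (1.49) or 3 (1.44), without the hypoxic array numbered 2 (1.28) or 3 (1.27), and with 50 added to the linear values (0.92). The pSUC2 call was lost without the control array numbered 2 (2.24) or the hypoxic array numbered 2 (1.80). The p35S and pGL2 values were called after quantile normalization (2.03 and 1.88), with low probe sets left out, and with shoots fitted apart. In that last fit the spread came from shoot arrays only, and the limma adjusted p values were 0.00296 and 0.00343.

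WRKY53 rose most in the phloem line of the root. In pSUC2 it read 10.02 and 9.43 in hypoxia and 5.72 and 5.59 in control, a difference of 4.07 ± 0.39 (16.8-fold, adjusted p 3.09e-11). The non-hair epidermis line pGL2 came next, with 8.58 and 8.50 in hypoxia and 5.32, 5.94 and 6.03 in control (2.78 ± 0.36, adjusted p 7.1e-08). The responses of the 8 root promoter lines ranged over 3.41, and the F-test of whether they differ was called (adjusted p 0.00064). That test called 2 of the 6 members, WRKY53 and WRKY20, against 3.39% of all tested probe sets.

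In the other root lines the response of WRKY53 was smaller. In pRPL11C it was 8.17 and 6.71 in hypoxia and 5.42 and 5.43 in control (2.01 ± 0.39, adjusted p 0.000142). In pSHR it was 7.09 and 6.86 in hypoxia and 5.14 and 4.98 in control (1.92 ± 0.39, adjusted p 0.000432). In pPEP the values were 6.54 and 6.55 in hypoxia and 5.19 and 4.98 in control (1.46 ± 0.39, adjusted p 0.00766). All of these hypoxic arrays lay above their controls, but the pRPL11C pair was uneven and the difference was 2.74 without the hypoxic array numbered 2 and 1.29 without the one numbered 1, called in both cases. In p35S it was 6.06 and 7.70 in hypoxia and 5.58, 5.17 and 5.60 in control (1.43 ± 0.36, adjusted p 0.0081). In pWOL it was 6.42 and 6.14 in hypoxia and 5.21 and 5.04 in control (1.16 ± 0.39, adjusted p 0.0445). The hypoxic SD of WRKY53 was 1.16 in p35S and 1.03 in pRPL11C, against 0.39 shared by all groups in the model. The SE and adjusted p values of p35S and pRPL11C therefore understate the scatter there.

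Root total RNA, pSCR and pCO2 were not called for WRKY53. Total RNA read 5.48, 6.52 and 6.05 in hypoxia and 5.08, 5.41, 5.35 and 5.13 in control (0.77 ± 0.30, adjusted p 0.0977). In pSCR the values were 6.06 and 6.31 in hypoxia and 5.15 and 5.24 in control (0.99 ± 0.39, adjusted p 0.113). In pCO2 they were 6.13 and 6.20 in hypoxia and 5.49 and 5.52 in control (0.66 ± 0.39, adjusted p 0.327). Here too no hypoxic array overlapped with its controls. In the order of the 10 responses only the step between pSUC2 and pGL2, 1.29 ± 0.53, exceeded 2 SE.

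In shoots WRKY53 was called in pCER5, where it read 7.89 and 7.37 in hypoxia and 6.01 and 6.37 in control (1.44 ± 0.39, adjusted p 0.0143). In shoot pSUC2 it was 7.85 and 7.66 in hypoxia and 7.28 and 6.47 in control (0.88 ± 0.39, adjusted p 0.217). In shoot pGL2 it was 7.00 and 7.65 in hypoxia and 6.38 and 6.68 in control (0.80 ± 0.39, adjusted p 0.684). In both lines the hypoxic arrays lay above the controls without a call. Shoot pKAT1 read 6.83 and 6.30 in hypoxia and 5.79 and 6.26 in control, shoot p35S 6.37 and 7.24 in hypoxia and 6.39 and 6.39 in control. Shoot total RNA read 6.28, 6.43 and 6.00 in hypoxia and 6.32, 6.17 and 5.15 in control, and pRBCS 5.86 and 6.80 in hypoxia and 6.14 and 7.04 in control. In p35S, total RNA and pRBCS the arrays of both conditions overlapped.

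Several WRKY53 calls changed with single arrays. In root total RNA the difference was 1.04 and called without the hypoxic array numbered 1 (adjusted p 0.0321). In p35S it was 2.25 without the hypoxic array numbered 1 and 0.61, not called, without that numbered 3. The pWOL call was lost without any of its 4 arrays (1.02 to 1.30), after quantile normalization (1.05) and with 50 added (0.59). The pPEP call was lost without the control array numbered 2 (1.35) or the hypoxic array numbered 2 (1.46), and with 50 added (0.77), which also ended the p35S call (0.88). The shoot pCER5 call was lost without the control array numbered 1 (1.26) or the hypoxic array numbered 1 (1.18).

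**Figure D3:**
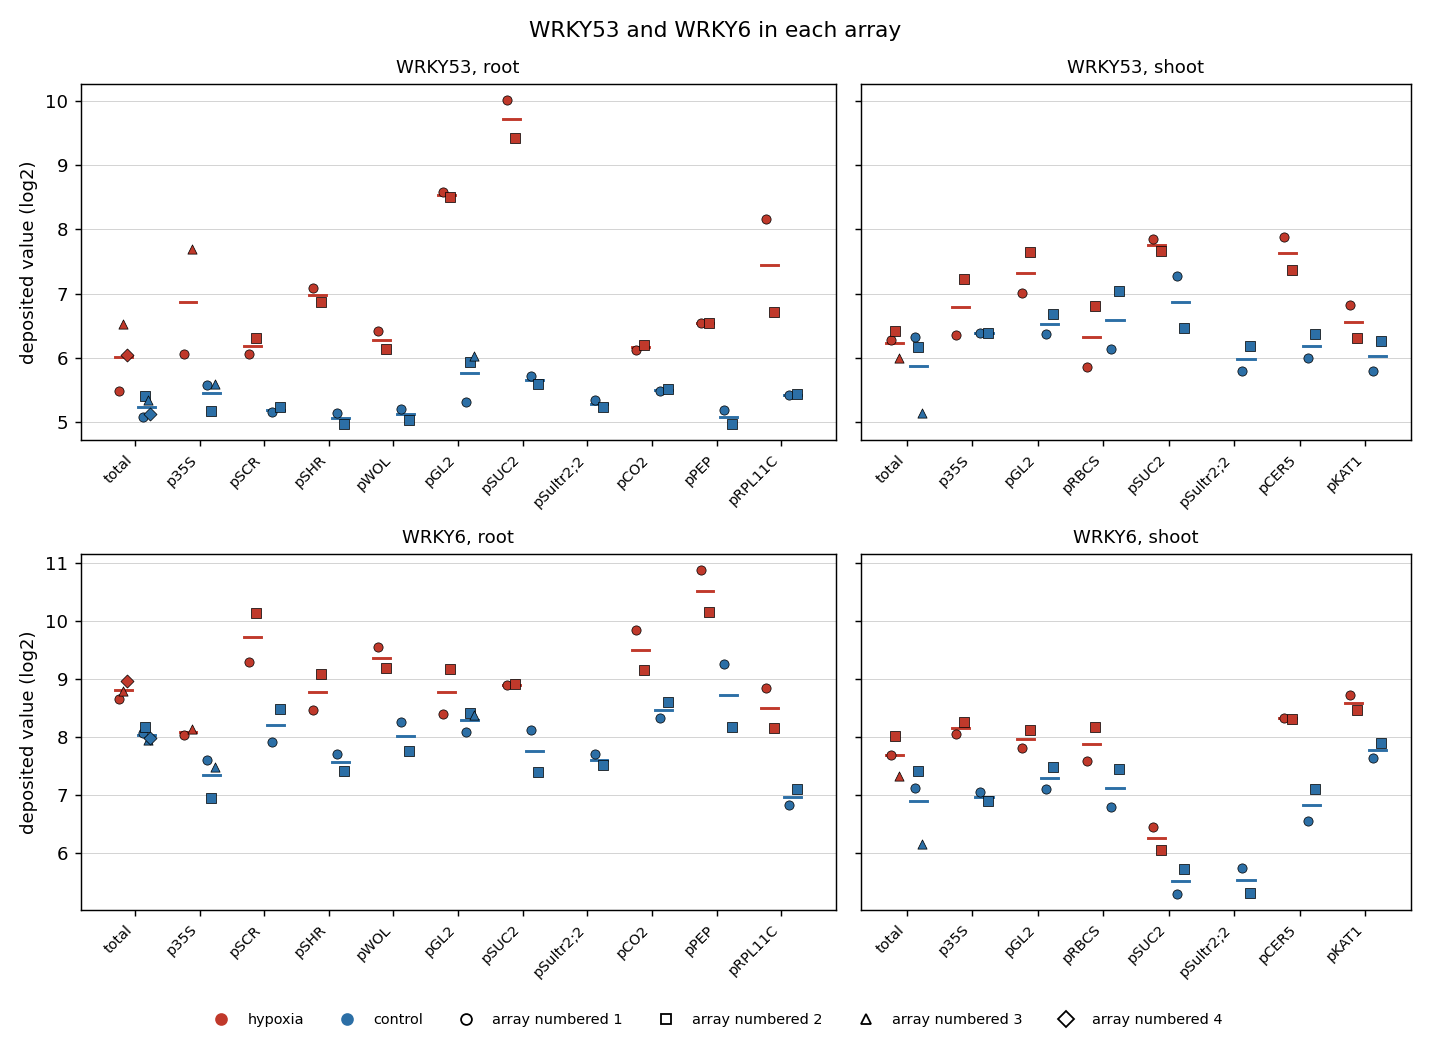
Deposited log2 values of WRKY53 (top) and WRKY6 (bottom) in every array, roots left and shoots right, hypoxia in red left of control in blue; symbols give the array number and horizontal lines the group means. WRKY53 stands out in hypoxic root pSUC2 (10.02 and 9.43) and pGL2 (8.58 and 8.50), and WRKY6 is lower in the shoot phloem lines than in other shoot populations.

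WRKY6 rose by a smaller and more even amount, between 1.04 and 1.81 in the 7 root populations where it was called. In pPEP it read 10.89 and 10.16 in hypoxia and 9.26 and 8.17 in control (1.81 ± 0.34, adjusted p 0.000143). In pRPL11C it read 8.84 and 8.16 in hypoxia and 6.82 and 7.10 in control (1.54 ± 0.34, adjusted p 0.000833). The pPEP line had the highest and pRPL11C the lowest WRKY6 mean of the root promoter lines other than p35S in both conditions, and their responses differed by 0.26 ± 0.49.

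In pSCR WRKY6 was 9.29 and 10.15 in hypoxia and 7.91 and 8.49 in control (1.52 ± 0.34, adjusted p 0.00172). In pWOL it was 9.55 and 9.18 in hypoxia and 8.26 and 7.76 in control (1.36 ± 0.34, adjusted p 0.00504). In pSHR it was 8.47 and 9.09 in hypoxia and 7.71 and 7.40 in control (1.22 ± 0.34, adjusted p 0.0136). The arrays did not overlap in these lines, nor in the next pair. In pSUC2 WRKY6 was 8.90 and 8.91 in hypoxia and 8.11 and 7.39 in control (1.15 ± 0.34, adjusted p 0.0208). In pCO2 it was 9.85 and 9.16 in hypoxia and 8.33 and 8.60 in control (1.04 ± 0.34, adjusted p 0.0352).

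The remaining root populations were not called for WRKY6. Total RNA read 8.65, 8.80 and 8.96 in hypoxia and 8.07, 8.17, 7.94 and 7.97 in control (0.77 ± 0.26, adjusted p 0.0545). In p35S the values were 8.04 and 8.13 in hypoxia and 7.60, 6.95 and 7.48 in control (0.74 ± 0.31, adjusted p 0.218). In pGL2 they were 8.39 and 9.17 in hypoxia and 8.08, 8.41 and 8.37 in control (0.50 ± 0.31, adjusted p 0.429). Only in pGL2 did a hypoxic root array fall within the control range. The F-test over the root lines gave WRKY6 an adjusted p of 0.652, with responses ranging over 1.31.

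In shoots WRKY6 was called in pCER5, with 8.33 and 8.31 in hypoxia and 6.55 and 7.10 in control (1.50 ± 0.34, adjusted p 0.00287). The p35S value was close to a call, with 8.05 and 8.25 in hypoxia and 7.04 and 6.89 in control (1.19 ± 0.34, adjusted p 0.0647). Shoot pKAT1 read 8.72 and 8.46 in hypoxia and 7.63 and 7.90 in control, and shoot pSUC2 6.44 and 6.05 in hypoxia and 5.29 and 5.73 in control. In all 7 shoot populations the mean was higher in hypoxia, and the arrays overlapped in total RNA only. Shoot total RNA read 7.69, 8.02 and 7.33 in hypoxia and 7.11, 7.42 and 6.15 in control, pGL2 7.81 and 8.11 in hypoxia and 7.10 and 7.49 in control. The pRBCS arrays read 7.59 and 8.17 in hypoxia and 6.80 and 7.44 in control. The 5 populations without the p35S and pCER5 lines had differences of 0.67 to 0.83.

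WRKY6 calls also leaned on single arrays. The pSCR call was lost without the control array numbered 1 (1.23) or the hypoxic array numbered 2 (1.09). The pSHR call was lost without the arrays numbered 2 of control (1.07) or hypoxia (0.91), and the pWOL call without control array 2 (1.11) or hypoxic array 1 (1.17). The pSUC2 call was lost without control array 2 (0.79) or either hypoxic array (1.15 each), and the pCO2 call without either control array (0.91 and 1.17) or hypoxic array 1 (0.69). With 50 added, pSUC2 and pCO2 came to 0.99 and 0.95 and were not called. In shoots the pCER5 call was lost without control array 1 (1.22), and the total RNA value was called without control array 2 (1.05). The pPEP and pRPL11C calls held without each array in turn, at 1.26 to 2.35 and 1.20 to 1.88.

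WRKY20 responded little to hypoxia, and it was called in none of the 17 hypoxia comparisons. In root pSCR it read between 8.48 and 8.90 in hypoxia and between 7.77 and 7.97 in control (0.82 ± 0.17, adjusted p 0.000535). In root total RNA the mean was 8.02 ± 0.22 in hypoxia (SD, n = 3) and 7.48 ± 0.19 in control (n = 4), a difference of 0.54 ± 0.13 (adjusted p 0.00304). Both values passed the adjusted p but not the 2-fold minimum. Without the hypoxic pSCR array numbered 1 the pSCR difference was 1.04 and called.

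In the other root lines the responses of WRKY20 lay between −0.35 and 0.39. The pSUC2 arrays read between 9.09 and 9.19 in hypoxia and between 9.47 and 9.50 in control (−0.35 ± 0.17, adjusted p 0.226). The pGL2 difference was −0.19 ± 0.16, with means of 8.72 in hypoxia and 8.91 in control. In pRPL11C, pCO2, pWOL, pPEP and pSHR the means were 8.69, 8.76, 8.53, 8.51 and 8.59 in hypoxia and 8.35, 8.44, 8.23, 8.28 and 8.41 in control. The p35S means were 8.54 in hypoxia and 8.14 in control. The responses of the root promoter lines therefore ran from pSUC2 at the low end to pSCR at the high end over 1.17, a spread that the F-test called (adjusted p 0.0277). This call was lost without pSCR control array 1 (1.07) or hypoxic array 2 (0.96), without pGL2 hypoxic array 1 (1.17), and without pSUC2 control array 1 (1.15), control array 2 (1.19) or hypoxic array 2 (1.12). It was also lost with roots fitted apart (adjusted p 0.122) and with low probe sets left out (adjusted p 0.0552).

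Shoot responses of WRKY20 lay between −0.24 in pSUC2 and 0.43 in pCER5, with adjusted p values of 0.149 and above. The pSUC2 line again had the lowest response, with means of 9.09 ± 0.15 in hypoxia and 9.33 ± 0.04 in control (SD, n = 2 each). In pCER5, pKAT1, pGL2 and pRBCS the means were 8.51, 8.46, 8.33 and 8.15 in hypoxia and 8.08, 8.13, 8.05 and 7.89 in control. In shoot p35S and total RNA they were 8.00 and 7.79 in hypoxia and 7.80 and 7.72 in control.

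WRKY47 had negative differences in 8 of 10 root and 7 of 7 shoot populations, none of them called. In shoot total RNA the mean was 5.40 ± 0.40 in hypoxia and 6.27 ± 0.16 in control (SD, n = 3 each), a difference of −0.87 ± 0.20 (adjusted p 0.00315). In root pGL2 the arrays read between 5.84 and 6.22 in hypoxia and between 6.68 and 6.92 in control (−0.78 ± 0.22, adjusted p 0.016). These values passed the adjusted p but not the 2-fold minimum, and without the hypoxic shoot array numbered 2 the shoot value was −1.09 and called lower.

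The other differences of WRKY47 lay between −0.61 and 0.16. In shoot pCER5, pRBCS, pSUC2 and pGL2 the means were 5.95, 6.07, 5.18 and 6.17 in hypoxia and 6.56, 6.68, 5.55 and 6.51 in control. The p35S and pKAT1 shoot means were 6.04 and 6.23 in hypoxia and 6.30 and 6.36 in control. In 6 of the 7 shoot populations every hypoxic array lay below every control array, though none of the 7 differences was called. How many of all tested probe sets separate in this way is not given, so this count only describes the arrays. In root pPEP, total RNA, pSCR and pSUC2 the means were 7.30, 5.82, 6.48 and 6.15 in hypoxia and 7.74, 6.05, 6.70 and 6.33 in control. In pWOL, pSHR, pCO2, p35S and pRPL11C they were 6.12, 6.02, 7.15, 5.67 and 5.97 in hypoxia and 6.25, 6.07, 7.18, 5.61 and 5.81 in control.

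WRKY42, the relative of WRKY6 in the same subgroup, read between 4.55 and 5.36 in all 79 arrays. Its group means lay between the 22.5th and 30th percentile of the array, near the low end of the scale, where a change may not be measurable. Its hypoxia differences lay between −0.25 and 0.24 in roots and between −0.24 and 0.28 in shoots, with 0 unadjusted p values under 0.05.

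Whether the response differs between organs was tested as root minus shoot difference in the 4 populations that exist in both. WRKY22 responded more in roots in total RNA, by 2.66 ± 0.58 (adjusted p 0.0038), in pGL2 by 3.24 ± 0.70 (adjusted p 0.00462) and in pSUC2 by 3.08 ± 0.73 (adjusted p 0.0112). In p35S the difference was 2.24 ± 0.70 and was not called (adjusted p 0.176), and it was 3.68 and called without the hypoxic root array numbered 1 but 0.81 and not called without that numbered 3. WRKY53 responded more in roots in pSUC2, by 3.19 ± 0.55 (adjusted p 0.000222), and in pGL2, by 1.98 ± 0.53 (adjusted p 0.0366). The differences of WRKY53 in p35S (1.01 ± 0.53) and total RNA (0.42 ± 0.44) were not called. WRKY6 had organ differences between −0.45 and 0.41, with adjusted p values of 0.808 and above, so no organ difference was detected for it.

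Calls among the 6 members numbered 1 in total RNA (1.61% of all tested probe sets), 0 in p35S (0.611%, with 1 member at an unadjusted p under 0.05), 2 in pGL2 (1.44%) and 2 in pSUC2 (2.11%). The pGL2 line marks non-hair epidermis in roots and trichomes in shoots, so its organ difference also compares cell types. WRKY22 lost the pGL2 call without hypoxic root array 2 (2.87), control shoot array 2 (2.95) or hypoxic shoot array 1 (2.98), and the pSUC2 call without hypoxic root array 2 (2.99) or hypoxic shoot array 1 (2.62). WRKY53 lost the pGL2 call without control root array 1 (1.76), either hypoxic root array (1.94 and 2.02), either control shoot array (2.13 and 1.83) or hypoxic shoot array 1 (1.66). Its pSUC2 call and the total RNA call of WRKY22 held without each array in turn.

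**Figure D4:**
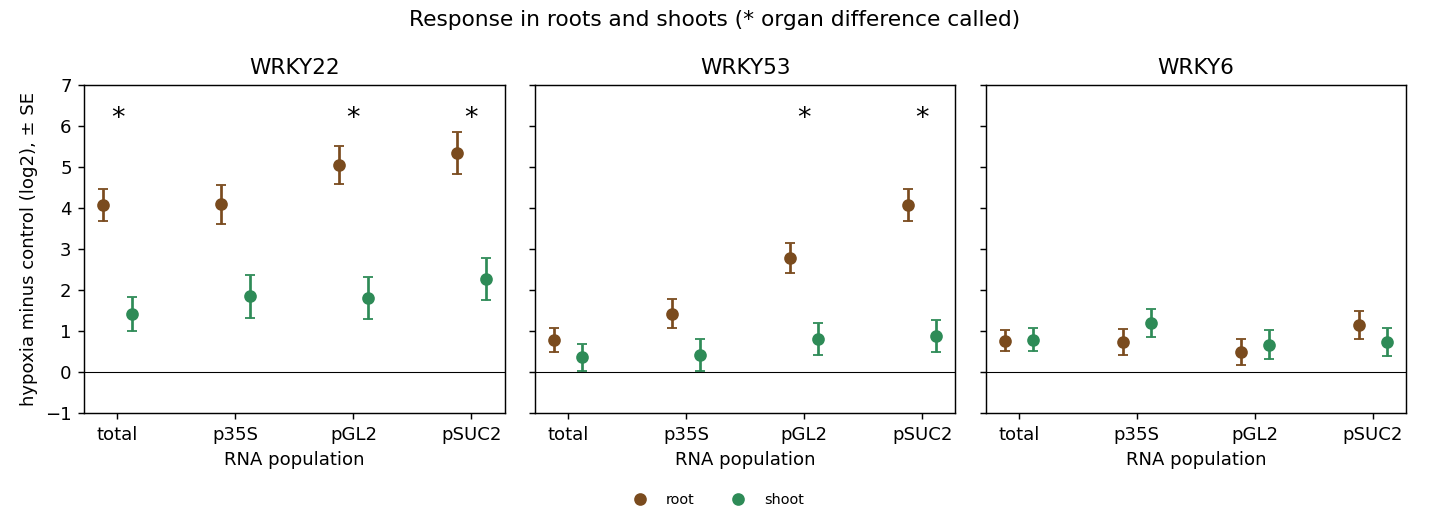
Hypoxia minus control log2 difference (points, ± SE of the model) of WRKY22, WRKY53 and WRKY6 in roots (brown, left of each pair) and shoots (green) in the 4 populations read in both organs; a star marks a called root minus shoot difference. WRKY22 is higher in roots in each population and WRKY53 in pSUC2 (4.07 against 0.88), while the WRKY6 points lie close together.

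In air the levels of WRKY6, WRKY20 and WRKY47 differed among the promoter lines other than p35S in both organs, and those of WRKY22, WRKY42 and WRKY53 were not shown to. In control root arrays WRKY22 lay at percentiles 17.7 to 39.1 and WRKY53 at 26.8 to 43.1. So low on the scale a difference between root lines may not be measurable. In control arrays of the shoot promoter lines other than p35S, WRKY22 lay at percentiles 34.4 to 50.4 and WRKY53 at 40.5 to 61.8. The F-tests over control means called 3 of 6 members among the 9 root lines (31.6% of all tested probe sets) and 3 of 6 among the 6 shoot lines (33.8%), so such differences were common on the array. WRKY20 was highest in pSUC2 in both organs, at 9.49 ± 0.02 in roots and 9.33 ± 0.04 in shoots (SD, n = 2 each). The p35S line is left out of the orders and ranges that follow. The next root lines were pGL2 at 8.91 and pSultr2;2 at 8.66, and its lowest was pSCR at 7.87, a range of 1.62 (adjusted p 1.2e-09). In shoots the other phloem line pSultr2;2 was second at 8.53 and pRBCS lowest at 7.89 (p35S read 7.80), a range of 1.44 (adjusted p 1.85e-09). The steps from pSUC2 to the second line, 0.57 ± 0.16 in roots and 0.80 ± 0.17 in shoots, exceeded 2 SE.

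WRKY6 showed the reverse in shoots, where both phloem lines were lowest. It was 5.51 ± 0.31 in pSUC2 and 5.53 ± 0.31 in pSultr2;2, against 6.82 in pCER5, 7.12 in pRBCS, 7.29 in pGL2 and 7.77 in pKAT1, a range of 2.26 (adjusted p 6.65e-08). The step between pSultr2;2 and pCER5, 1.30 ± 0.34, exceeded 2 SE and the other steps did not. In roots WRKY6 was highest in pPEP (8.72) and lowest in pRPL11C (6.96, range 1.76, adjusted p 0.000636), with the phloem lines in between at 7.75 and 7.61. WRKY47 was likewise highest in root pPEP (7.74) and lowest in root pRPL11C (5.81; p35S read 5.61), a range of 1.93 (adjusted p 7.56e-09). In shoots it was highest in pSultr2;2 (6.79) and lowest in pSUC2 (5.55), a range of 1.24 (adjusted p 0.000312). With 50 added that range was 0.73 and was not called. The gene of the PEP promoter, AT1G09750, was also highest in control root pPEP (10.25), and it read 5.96 in p35S and 6.02 in pRPL11C.

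**Figure D5:**
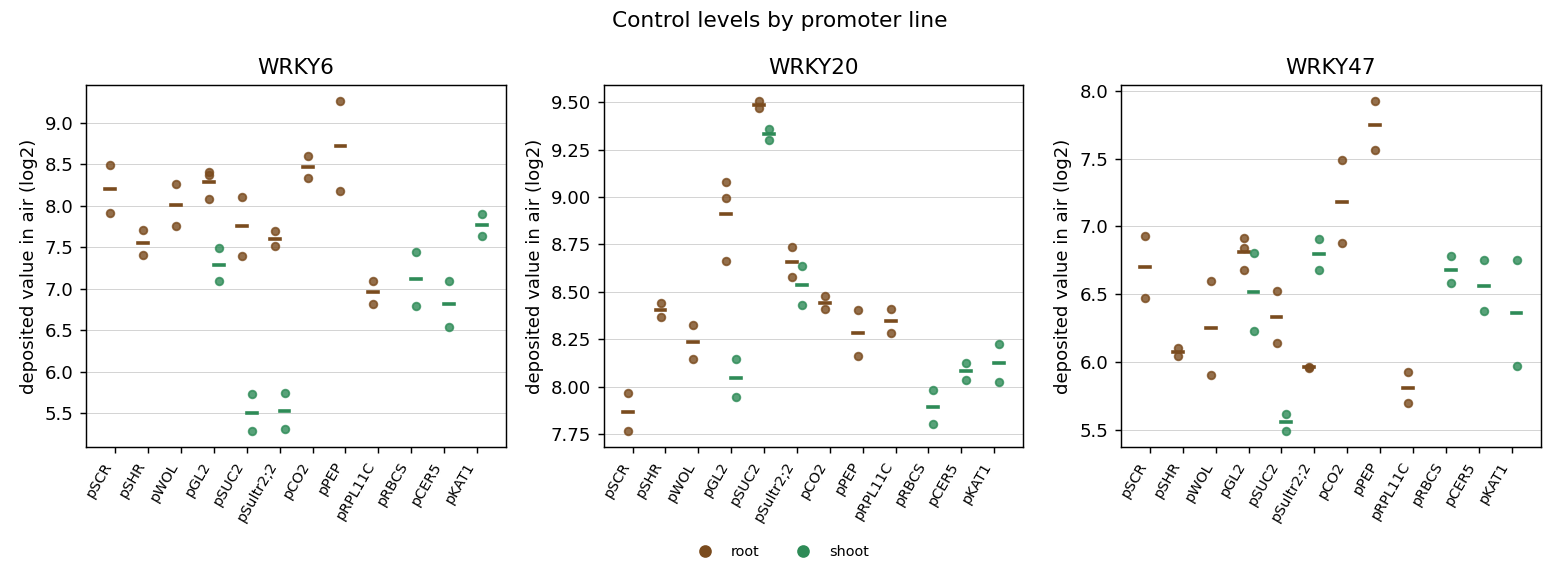
Deposited log2 values in air of WRKY6, WRKY20 and WRKY47 in each promoter line (points are arrays, lines are means; roots brown, shoots green). WRKY20 is highest in pSUC2 in both organs, WRKY6 lowest in the shoot phloem lines pSUC2 and pSultr2;2, and WRKY47 highest in root pPEP.

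Between whole organs in air, WRKY6 was higher in roots, at 8.04 ± 0.10 (SD, n = 4), than in shoots, at 6.89 ± 0.66 (n = 3), a difference of 1.15 ± 0.26 (adjusted p 0.000255). It was the only call among the 6 members, where 22.9% of all tested probe sets were called. The shoot array numbered 3 was low (6.15 against 7.11 and 7.42), and without it the difference was 0.77 and not called. It came to 0.87 and was not called with 50 added. WRKY53 ran the other way, with 5.24 ± 0.16 in roots and 5.88 ± 0.64 in shoots (−0.64 ± 0.30, adjusted p 0.075), and without the same shoot array it was called lower in roots (adjusted p 0.00878). Among the 79 arrays the plastid gene psbA read 4.91 to 6.91 in root and 9.15 to 12.80 in shoot arrays.

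Polysomal RNA of p35S plants was compared with total RNA to ask whether transcripts are over- or underrepresented on ribosomes. No member was called in control roots (6.03% of all tested probe sets), hypoxic roots (4.66%), control shoots (3.13%) or hypoxic shoots (3.54%), although 3, 3, 0 and 1 members had an unadjusted p under 0.05. WRKY20 was higher in polysomal than in total RNA by 0.51 ± 0.16 in hypoxic roots (adjusted p 0.0221) and by 0.66 ± 0.13 in control roots (adjusted p 0.000127), under the 2-fold minimum. WRKY22 differed by −0.06 ± 0.47 in hypoxic roots and −0.07 ± 0.39 in control roots. Without the hypoxic p35S array numbered 1 the hypoxic root difference was 1.37, and without that numbered 3 it was −1.49, not called in either case. The contrast was unpaired, and each refit kept the total RNA array of the number left out. In hypoxic arrays 1 and 3 WRKY22 read 7.85 and 10.72 in p35S and 7.69 and 9.99 in total RNA. WRKY53 was higher in polysomal RNA of hypoxic roots by 0.86 ± 0.36 (adjusted p 0.116), and this was called without the hypoxic p35S array numbered 1 (1.68) or the hypoxic total RNA array numbered 3 (1.11). Without the hypoxic p35S array numbered 3 it was 0.04. These refits were unpaired as well. In hypoxic arrays 1 and 3 WRKY53 read 6.06 and 7.70 in p35S and 5.48 and 6.52 in total RNA. The change of the polysomal minus total difference under hypoxia was called for 0 members in roots (0.0264%) and 0 in shoots (0%), with 0 unadjusted p values under 0.05 in either.

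Over the 17 hypoxia responses, those of WRKY53 (Pearson r 0.56), WRKY6 (0.49) and WRKY47 (0.48) ran most like those of WRKY22, a description over populations processed alike, of which some come from the same plants. These r values pool both organs, and WRKY22 rose by 4.08 to 6.11 in roots and by 0.98 to 2.53 in shoots. They therefore also carry the difference between organs, and likeness within 1 organ was not computed. WRKY47 itself had negative differences in 8 of 10 root and 7 of 7 shoot populations. Over the 36 group means, the named probe sets most like WRKY22 were AT5G44730, AT1G76600 and AT4G33980 (r 0.96, 0.96 and 0.95), and the one most like WRKY53 was the zinc finger gene STZ (r 0.80). This likeness over group means was chosen after the values were seen. STZ read 10.81 and 10.56 in hypoxic root pSUC2, and 7.47 and 10.54 in hypoxic root p35S arrays 1 and 3, so that it was low in the same p35S array as WRKY22 and WRKY53. In hypoxic root total RNA arrays 1, 3 and 4 STZ read 6.88, 8.94 and 7.04. There it was low in array 4 as well, in which WRKY22 read 10.34.

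Of the genes listed around the family, none of 10 MAP kinase cascade genes and none of 3 VQ partner genes had a named probe set, and 2 of 14 defence genes did. EFR, the receptor for a bacterial elongation factor peptide, was called in 0 of 17 hypoxia comparisons, with 1 unadjusted p under 0.05 and differences between −0.41 and 0.29. BIK1, a kinase that acts with such receptors, was called higher in 1 of 17, with 3 unadjusted p values under 0.05 and differences between −0.16 and 1.21. Over all tested probe sets 3.13% of root and 1.52% of shoot values were called higher. In root pPEP BIK1 read 10.06 and 10.56 in hypoxia and 9.34 and 8.86 in control (1.21 ± 0.28, adjusted p 0.00181).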

How the data were processed

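The deposited values are log2 signals that the authors made with RMA in the R package affy, per the submitters' processing notes, which give no version. RMA corrects background, quantile-normalizes probes and summarises them by median polish; the sources used here do not say whether the arrays were processed in a single run. Per the labels' protocols, the RNA was amplified by a cDNA synthesis of 2 cycles, which can distort the levels of low transcripts.

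Here the 64 AFFX controls of 22810 probe sets were left out. Names came from the platform annotation and RefSeq (TAIR10.1): 13513 probe sets have 1 gene, 503 several and 8730 no name here. Coordinates are left out because the labels name no build. All 79 arrays entered 1 limma 3.58.1 model (R 4.3.3) of 36 group means (43 residual and 4.49 prior degrees of freedom), which assumes equal spread in all groups. Its 17 hypoxia contrasts, 11 other contrasts and 4 F-tests were adjusted by Benjamini-Hochberg over 22746 probe sets. Errors are SE of a difference or SD of a group. The fit was tested on simulated data. Figures were drawn with matplotlib 3.10.9. The alternatives were 50 added to linear values, quantile normalization, probe sets with a mean under 6 left out, no minimum difference, each organ apart, a replicate block and leaving out each array.

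Replicate numbers pair control and hypoxia arrays in total RNA, where the deviations of all pairs correlated at 0.26 to 0.72 in roots and 0.22 to 0.60 in shoots; elsewhere only 2 numbers are shared. The members and gene lists were chosen with earlier results of these data known. Named genes are all members, the listed genes that were called, and the members most like WRKY22; PDC2, psbA, STZ, ZAP1, EFR, the promoter genes and the probe sets most like WRKY22 by level were chosen after their values were seen.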

Additional observations from a re-analysis of the deposited data

Results flagged for a closer look

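A total of 7 results were taken up because a member's hypoxia response differed between organs or among root lines by a test of the difference itself. WRKY22 responded more in roots than in shoots by 2.66 in total RNA, 3.24 in pGL2 and 3.08 in pSUC2, and WRKY53 by 1.98 in pGL2 and 3.19 in pSUC2. Among the 8 root promoter lines the responses of WRKY53 ranged over 3.41 and those of WRKY20 over 1.17. The 4-array control group of root total RNA was checked for stray arrays for each of the 6 members, and 0 of 6 checks found one. Groups of 2 or 3 arrays are not covered by that check.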

How the results depend on the processing

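No difference called in the report or in an alternative changed sign. With 50 added to the linear values, 19 values rose in roots (24 in the report) and 5 in shoots (6), and the number of members called was 1 in root p35S (2), 1 in root pCO2 (2), 2 each in root pWOL, pSUC2 and pPEP (3 each), 2 for differing shoot levels in air (3), 0 in shoot total RNA (1) and 0 for the root minus shoot level in air (1). After quantile normalization 23 values rose in roots, with 2 members called in pWOL (3), and 9 in shoots, where 2 members were called in shoot p35S and 1 in shoot pGL2 (0 each in the report). Leaving out low probe sets, which kept 13368 probe sets and 5 of 6 members (WRKY42 dropped out), gave 2 in shoot p35S, 1 in shoot pGL2 and 1 for differing root responses (2). Without the minimum difference, 2 members were called in root total RNA and 2 in shoot total RNA (1 each), 2 polysomal minus total values (0), and 1 value fell in roots and 1 in shoots (0 each). The fall in roots was that of WRKY47 in pGL2 (−0.78), and WRKY20 was also called higher in root pSCR (0.82). With organs fitted apart, 1 was called in shoot p35S, 1 in shoot pGL2 and 1 for differing root responses; organ differences could not be fitted that way. With the replicate block, WRKY6 was called in shoot p35S (1.19, 1 member against 0), and no other call changed; in total RNA, where the numbers pair the samples, none did. Same-numbered arrays of root pRPL11C deviated in opposite directions (−0.23), and crossing their numbers in the block, chosen after seeing the data, left 3 members called there. Without both root hypoxia arrays numbered 1 (chosen after seeing the data), 2 members were called in root total RNA (1). Leaving out each array in turn gave 22 to 25 rises in roots (24) and 4 to 6 in shoots (6), with 0 to 1 falls in shoots and 3 to 6 organ differences (5). Calls were 1 to 2 in root total RNA, p35S, pWOL and pCO2, 1 to 3 in root pSCR and shoot pCER5, 2 to 3 in root pSHR, pSUC2 and pPEP, and 0 to 1 in shoot total RNA, shoot pSUC2 and the polysomal minus total comparison. Differing root responses numbered 1 to 2. Where a group kept 1 array, that array was assumed to vary like the other groups. For single member values, leaving out an array ended the call in 47 and added one in 8 of the refits.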

Other observations

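ZAP1, which carries WRKY1 among its synonyms, is no member by symbol but belongs to the family, and its group means ran closely with those of WRKY20 (rank 4 of all named probe sets, r 0.84 over 36 groups). In air it too was highest in root pSUC2, with 10.58 and 10.06, followed by pSultr2;2 with 9.72 and 9.33. Control root lines outside the phloem came close to pSultr2;2, with 9.23 and 9.29 in pCO2 and 9.49, 9.03 and 9.02 in pGL2. Root total RNA, which does not come from tagged ribosomes, read 7.97 to 8.38. This comparison was made after the values were seen, and no test is given.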
